A study of Mus musculus with 8 samples.

Results

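The samples described here were the 4 control samples of a mouse series on an inducible knockout of Avp, the gene for the water-retaining hormone vasopressin. They were chosen by genotype alone: AVP-flox, in which loxP sites flank Avp, without a Cre recombinase, and they made up 4 of 8 samples. All 8 samples were labelled tamoxifen, the drug that activates many inducible Cre enzymes, so the controls had the drug and the floxed allele but no Cre in their label. The series has no untreated group and no group without the floxed allele. The labels give the tissue as kidney and the cell type as IMCD, the inner medullary collecting duct. They do not give age, sex, strain background, the zygosity of the floxed allele, how the tissue was dissected or whether replicates were separate animals. Every value below is a description of these 4 libraries, and no group was compared with another.

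The collecting duct is the last segment of the kidney tubule, and its inner medullary stretch sets the final volume and concentration of urine. Vasopressin binds the receptor Avpr2 on the blood side of these cells, cyclic AMP rises, and vesicles that hold the water channel aquaporin-2 (Aqp2) fuse with the membrane that faces the urine. Water leaves the cell on the other side through Aqp3 and Aqp4, and urea follows its own carriers. The inner medulla is salty, rich in urea and poor in oxygen, and its cells are known for organic osmolytes, heat shock proteins and a glycolytic metabolism. Around the ducts lie thin limbs of the loop of Henle, capillaries called vasa recta and interstitial cells.

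Abundance was given as TPM, the share of all transcripts scaled to 1000000, in which each transcript is divided by its length and each library is scaled to the same total. TPM allows levels of different genes to be compared within a library, and it is a share: a gene can be higher because others are lower. The number of reads behind each library is unknown, so counting error and limits of detection could not be computed. In the text, 4 values in a row are libraries 1, 2, 3 and 4, and means are followed by the SD over these 4 libraries (n = 4). The table listed 51890, 51223, 50951 and 51248 genes above 0 TPM and 18529, 18531, 18500 and 18211 genes of at least 1 TPM. Pairs of libraries had Pearson correlations of 0.961 to 0.972 across the 18432 genes whose mean reached 1 TPM, on log2(TPM + 1). Genes are not independent replicates, and these values describe the libraries only. No pair held identical values in more than 1.13% of those genes.

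The libraries were not of 1 kind. Xist, the RNA that silences an X chromosome in females, stood at 0.31, 26.2, 19.2 and 23.1 TPM. The Y-linked gene Ddx3y stood at 32.3, 0, 0 and 0 TPM. Eif2s3y, Kdm5d and Uty, also Y-linked, stood at 25.3, 14.9 and 15.7 TPM in library 1 and at 0 or 0.01 TPM in the others. Library 1 thus had the male pattern and libraries 2, 3 and 4 the female pattern. Where library 1 stands apart below, sex and the other properties of that library cannot be told apart. Library 2 was low in mitochondrially encoded genes and in thick ascending limb markers, and libraries 1 and 3 were high in proximal tubule markers. These values are given beside the results below, and their part in other differences between libraries was not tested. Avp itself was at 0, 0.16, 0.05 and 0.24 TPM.

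The 6 marker genes fixed for the inner medullary collecting duct were present in every library. Aqp2, the vasopressin-regulated water channel, stood at 15171, 15764, 14915 and 18131 TPM and was the highest of all genes by mean (15995 ± 1467 TPM). It ranked first in libraries 3 and 4 and second in libraries 1 and 2. Fxyd4, a small regulator of the sodium pump found in collecting duct cells, stood at 1404, 2131, 1691 and 2151 TPM. Slc14a2, the urea transporter of the inner medullary duct and of the thin descending limb, stood at 1054, 1068, 848 and 1081 TPM, lowest in library 3. Of the exit channels for water, Aqp4 stood at 849.6, 1041, 832 and 740.2 TPM. Aqp3 stood at 598, 746, 774 and 879.6 TPM. Aqp4 was thus the higher in libraries 1, 2 and 3 and Aqp3 in library 4, so their order did not hold over the libraries. Avpr2, the vasopressin V2 receptor, stood at 467, 529, 396 and 535 TPM, and its exons overlap Arhgap4 on the other strand. The markers together summed to 19544, 21279, 19456 and 23517 TPM, with a mean of 20949 ± 1906 TPM. Aqp2 made up 76.4% of that sum, and the other 5 markers summed to 4954 ± 580 TPM. None of the 6 was near 0. Their presence alone does not set the inner medullary stretch apart from the rest of the collecting duct. Umod, a marker of the thick ascending limb, was above Slc14a2 in libraries 1, 3 and 4, at 1404, 1139 and 1162 TPM.

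Among the markers, 4 of 6 matched a RefSeq promoter window on GRCm38.p6: Aqp2, Aqp3, Fxyd4 and Avpr2. The stretches upstream of their annotated starts are shown because these genes are the markers used for the duct here. Capitals mark TATAA within the last 50 bases, read on the gene's own strand, and TGACG on either strand (CGTCA when read on the gene's strand), the half-site of the cyclic AMP response element. The Aqp2 stretch spans chr15:99578806-99579055 on the plus strand (250 bases). The others are the last 100 bases before the start: Aqp3 at chr4:41098184-41098283 on the minus strand, Fxyd4 at chr6:117937336-117937435 on the minus strand and Avpr2 at chrX:73892002-73892101 on the plus strand.
Aqp2: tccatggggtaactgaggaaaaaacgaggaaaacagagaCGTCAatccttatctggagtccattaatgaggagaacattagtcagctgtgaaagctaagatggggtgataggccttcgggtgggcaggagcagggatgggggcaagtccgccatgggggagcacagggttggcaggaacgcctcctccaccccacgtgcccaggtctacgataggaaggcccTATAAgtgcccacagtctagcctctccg
Aqp3: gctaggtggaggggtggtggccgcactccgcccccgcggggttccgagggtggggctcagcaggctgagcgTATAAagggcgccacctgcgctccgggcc
Fxyd4: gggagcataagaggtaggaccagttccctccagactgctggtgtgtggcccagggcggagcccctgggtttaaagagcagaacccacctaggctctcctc
Avpr2: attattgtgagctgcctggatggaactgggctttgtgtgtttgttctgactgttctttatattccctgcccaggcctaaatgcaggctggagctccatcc
TATAA began at position -28 of Aqp2 and -29 of Aqp3, counted from -1 at the last base before the start, and was not in these letters of Fxyd4 or Avpr2. It occurred in the same 50 bases of 4.93% of all 32851 windows. For protein-coding genes at 1000 TPM or more, where Aqp2 lies, it was in 20.7% of 58 windows. Between 100 and 1000 TPM, where Aqp3 lies, it was in 2.95% of 2067 windows. The half-site began at position -211 of Aqp2 and occurred in the 250 bases of 17.8% of all windows. It was in none of the 250-base windows of the other 3 genes. A match is a description of the letters and not a site.

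The vasopressin pathway had a simple order of levels within each step. Of the 4 receptors for vasopressin and oxytocin, Avpr2 made up 98.5% of the summed level. Avpr1a, the V1a receptor, stood at 3.1, 6.96, 7.87 and 6.65 TPM. Oxtr, the oxytocin receptor, stood at 0.897 ± 0.299 TPM and Avpr1b at 0.07 ± 0.0462 TPM. Gnas, the G protein subunit that couples the receptor to cyclic AMP, was the highest of 16 G alpha genes at 678, 704, 709.5 and 635 TPM. The next were the inhibitory subunit gene Gnai2 (231 ± 30.8 TPM) and Gna11 (148 ± 7.16 TPM). Of 10 adenylyl cyclases, the enzymes that make cyclic AMP, Adcy6 stood at 53.8, 51.6, 54.1 and 50.2 TPM and made up 72% of the summed level. Adcy4 followed at 7.64 ± 1.22 TPM, Adcy3, a calmodulin-sensitive cyclase, stood at 1.44 ± 0.412 TPM, and 3 members had a mean below 1 TPM.

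Among the genes of protein kinase A, the main cyclic AMP sensor, a regulatory subunit was the highest. Prkar1a, the type I alpha regulatory subunit, stood at 330.1, 312, 331 and 298 TPM and made up 59.9% of the 6 subunits. The catalytic subunits Prkaca and Prkacb stood at 68.6 ± 6.07 TPM and 42.9 ± 3.44 TPM, and Prkar2b and Prkar2a at 52.5 ± 6.43 TPM and 24.7 ± 1.33 TPM. The ratio of Prkar1a to Prkaca was 5.45, 4.23, 4.55 and 4.42. Pkig, an inhibitor peptide of the kinase, stood at 122.8, 118, 134 and 118 TPM and made up 89.3% of the 3 inhibitor genes. Among 24 genes with phosphodiesterase symbols, Pde1a led at 135, 154, 163 and 156 TPM. It was followed by Pde2a (82.5 ± 10.7 TPM), Pde6d (79.6 ± 2.65 TPM), Pde8b (57 ± 5.48 TPM) and Pde1c (26 ± 3.36 TPM). Phosphodiesterases break cyclic nucleotides down, but the list was drawn by symbol, and Pde6d is not itself such an enzyme. Pde4a, of a family specific for cyclic AMP, stood lower at 10.2 ± 1.12 TPM. Of the anchoring genes in the AKAP list, which hold the kinase in place, Ezr (ezrin) led at 251 ± 13.3 TPM, ahead of Akap8l at 176 ± 18 TPM and Akap8 at 57.8 ± 6.12 TPM. The whole vasopressin receptor and cyclic AMP list held 0.437% ± 0.00866 of TPM (SD, n = 4), with 71 of 95 genes at a mean of at least 1 TPM and values of 0.434, 0.449, 0.436 and 0.429%.

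Of 22 listed genes of the machinery known to carry Aqp2 vesicles, 21 had a mean of at least 10 TPM. So did 9822 of all 77981 genes. Of 21718 protein-coding genes, 8752 had a mean under 1 TPM and 3697 between 1 and 10 TPM. Mal, a membrane raft protein that binds Aqp2, stood at 938, 1008, 990.1 and 979.5 TPM. The vesicle SNAREs Vamp8, Vamp2 and Vamp3 stood at 643 ± 15.3 TPM, 118 ± 10.6 TPM and 57.5 ± 6.52 TPM, and Vamp8 was among the 10 steadiest of the 200 most abundant genes. Among target SNAREs, Stx7 stood at 461 ± 15.1 TPM, Stx12 at 60.7 ± 4.11 TPM, Stx4a at 59.6 ± 5.42 TPM, Snap23 at 54.5 ± 5.43 TPM and Stx3 at 42.9 ± 5.26 TPM. Rab11a, of the recycling endosome, stood at 356, 357, 343 and 319 TPM and Myo5b, the myosin motor it recruits, at 46 ± 3.97 TPM. Rab11fip2, the adaptor between them, was the lowest at 5.33 ± 0.475 TPM. Rhoa and its inhibitor Arhgdia, which set the actin barrier to fusion, stood at 301 ± 29.1 TPM and 583 ± 39.2 TPM. The list summed to 5663 ± 121 TPM, and library 4 was the lowest.

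TPM was concentrated in a small part of the genes. Ranked by mean, 841 genes held 50% of all TPM and 6322 held 90%. In the single libraries, 834, 891, 826 and 788 genes held 50%, so library 2 was the least concentrated and library 4 the most. The first gene held 1.57, 1.62, 1.49 and 1.81% of its library, the first 10 held 7.74 to 9.43% and the first 100 held 21.2 to 23%. By mean, 76 genes stood at 1000 TPM or more and held 19.96% of TPM, 1998 genes between 100 and 1000 TPM held 47.4%, and 7748 genes between 10 and 100 TPM held 28.8%. The 8610 genes between 1 and 10 TPM held 2.99%. At least 1 TPM in all 4 libraries was reached by 15596 genes, 70.4% of the 22157 that reached it in any.

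**Figure D1:**
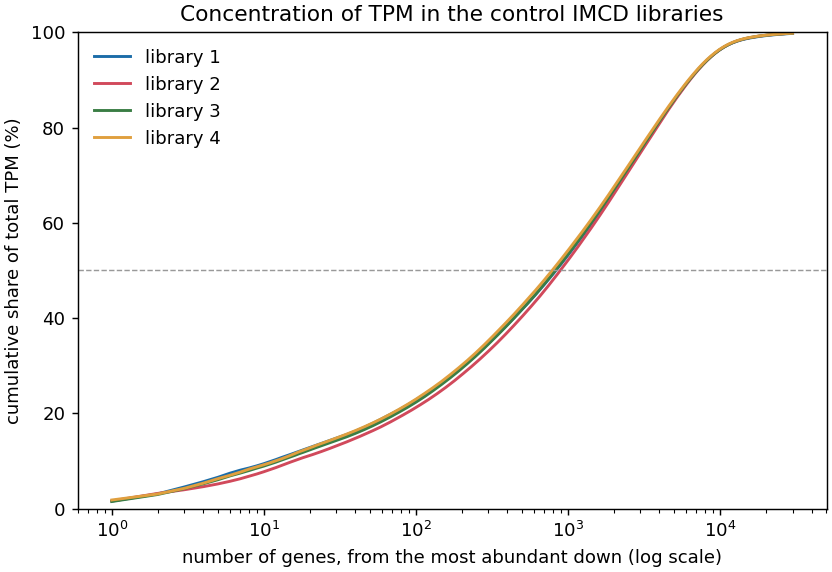
Cumulative share of TPM (vertical axis, %) against the number of genes counted from the most abundant down (horizontal axis, log scale), 1 line for each control library; the dashed line marks 50%. The 4 lines cross 50% between 788 and 891 genes.

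Libraries put much the same genes at the top. Of the 100 highest genes of each library, 79 were shared by all 4 and 121 appeared in any, and 21 of the 25 highest were shared. Their order was less fixed: none of the 25 neighbouring pairs down to rank 26 had ranges that stayed apart, and 5 pairs kept their order in all 4 libraries. After Aqp2, the small heat shock protein gene Cryab (alpha-B-crystallin) stood at 14620.5, 16161, 12486 and 12515 TPM and was first in library 2. Exons of Cryab overlap Hspb2 on the other strand. Fxyd2, the gamma subunit of the sodium pump, stood at 6254, 4235, 5871 and 6599 TPM, lowest in library 2.

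Beyond transport, the top 25 held genes of the cell surface, the actin system and secretion. Itm2b, a membrane protein of the secretory route, stood at 4485, 5223, 5058 and 4799 TPM. Tmsb4x, the actin-binding peptide thymosin beta 4, stood at 4423, 5301, 4241 and 4197 TPM, and both were highest in library 2. Spp1 (osteopontin, a secreted protein that binds calcium crystals) stood at 3256, 4047, 4231 and 3959 TPM, lowest in library 1. Igfbp7, a secreted protein that binds insulin-like growth factors, stood at 2963, 3349, 3599.9 and 4338 TPM, lowest in library 1 and highest in library 4. Nupr1, a small nuclear stress protein, stood at 4549.9, 3219, 3270.1 and 3679 TPM, highest in library 1. Ly6e and Psca, small surface proteins of the Ly6 family on lipid anchors, stood at 2682 ± 336 TPM and 2059 ± 394 TPM. Outside the top 25, Muc20, a membrane mucin, stood at 1884 ± 111 TPM, and Cck, the precursor of cholecystokinin, at 646, 709, 796 and 961 TPM. Both were picked after their values were seen.

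**Figure D2:**
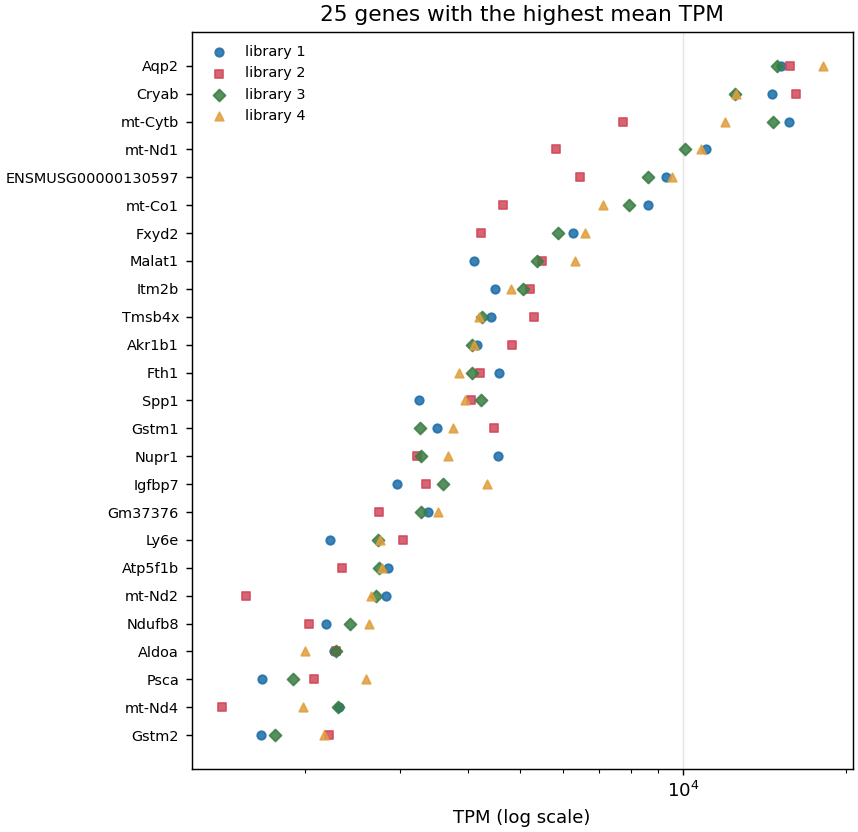
TPM (horizontal axis, log scale) of the 25 genes with the highest mean, 1 symbol for each control library. Aqp2 lies between 14915 and 18131 TPM, and the 5 mitochondrially encoded genes among the 25 are each lowest in library 2.

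Noncoding and unnamed identifiers took a small share, with a few very high members. By the gene types of GENCODE M21, protein-coding genes held 93.5% ± 0.16 of TPM, long noncoding genes 2.27% ± 0.0858 and pseudogenes 0.336% ± 0.0242 (SD, n = 4). Identifiers with no match in M21 held 3.1% ± 0.0495. Malat1, a nuclear long noncoding RNA, stood at 4106, 5495, 5371 and 6325 TPM, lowest in library 1. Gm37376, whose exons overlap Malat1 on the other strand, stood at 3369.98, 2739, 3273 and 3524 TPM. The identifier ENSMUSG00000130597, described in the table as antisense to Ehbp1l1 and neighbouring genes, stood at 9312, 6446, 8606 and 9528 TPM and had rank 5 by mean. ENSMUSG00000138427, antisense to Ldha and Ldhc, stood at 1297 ± 67.5 TPM and ENSMUSG00000141158, antisense to Camk2b, at 1178 ± 54.5 TPM. In all, 6263 such antisense identifiers held 1.69, 1.48, 1.66 and 1.74% of TPM. The cDNA kit does not keep strand, so reads of an antisense identifier and of the genes it overlaps cannot be told apart, and these values are uncertain. The same limit holds for named genes whose exons overlap a gene on the other strand. Among them are Muc20 (Muc4), Igfbp7 (Polr2b), Aldoa (Fam57b), Prdx5 (Trmt112), Ndufa3 (Tfpt) and Lamp1 (Grtp1). Ndufb8 and Ctsd overlap Gm20538 and Gm49369 on the same strand. Overlaps were not looked up for every gene named here.

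The 26 function lists, built from gene symbols so that each gene counts once, held 33.3% of TPM in 2422 genes. The largest was nuclear-encoded oxidative phosphorylation at 4.66% ± 0.51 of TPM, followed by mitochondrially encoded genes at 3.66% ± 0.914, heat shock proteins and chaperones at 2.78% ± 0.253, cytosolic ribosomal proteins at 2.47% ± 0.127 and the cytoskeleton at 2.24% ± 0.159 (SD, n = 4 for each). Water channels and urea transporters, 13 genes, held 1.94% ± 0.16, of which Aqp2 made up 82.6%. For 10 lists the SD was under 5% of the mean, the steadiest being the proton pump at 0.488, 0.478, 0.491 and 0.487%. For 2 lists it was over 15%, and these were mitochondrially encoded genes and metallothioneins. Neighbours in this order were not all separate: chaperones were above ribosomal proteins in libraries 1, 2 and 3 and below them in library 4.

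**Figure D3:**
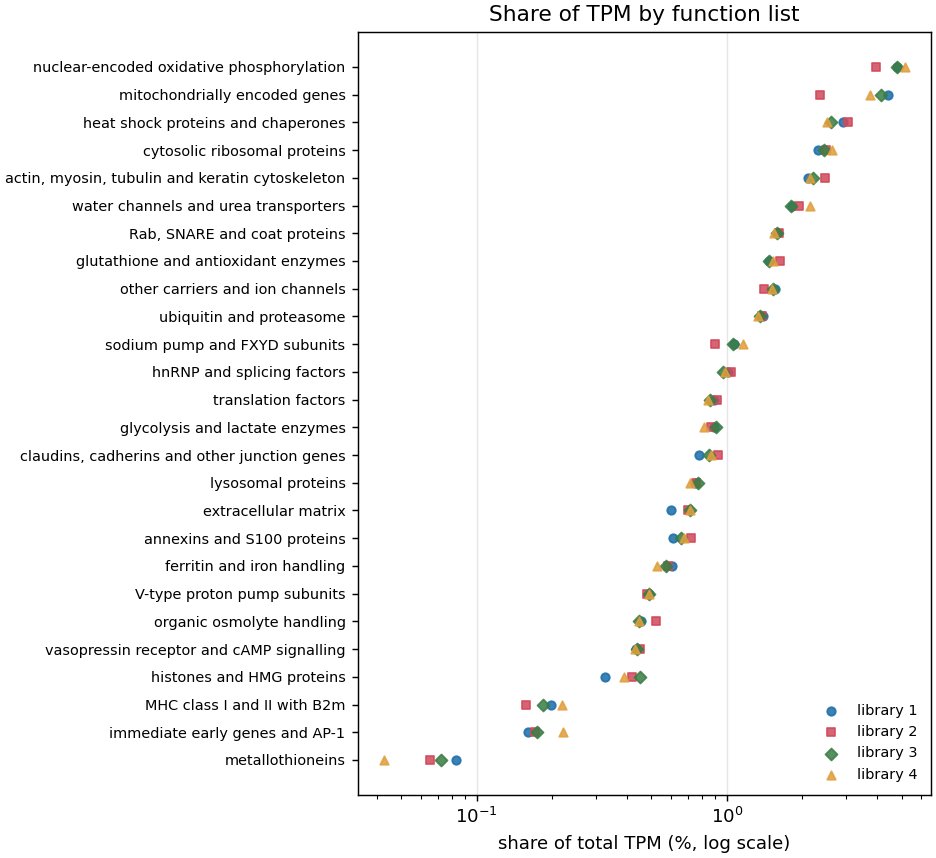
Share of total TPM (horizontal axis, %, log scale) in each of the 26 function lists, 1 symbol for each control library. Library 2 is the lowest for both lists of oxidative phosphorylation genes and for the sodium pump, and library 4 is the lowest for metallothioneins.

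Mitochondrially encoded genes held 4.42, 2.35, 4.13 and 3.75% of TPM, so library 2 was below the other 3. mt-Cytb, a subunit of complex III, stood at 15721, 7732, 14694 and 11983 TPM. mt-Nd1, of complex I, stood at 11046, 5819, 10082 and 10795 TPM. mt-Co1, of complex IV, stood at 8626, 4654, 7965 and 7110.5 TPM. Library 2 was the lowest for each of these and for mt-Nd2 (2433 ± 589 TPM) and mt-Nd4 (1998 ± 425 TPM). The ribosomal RNAs mt-Rnr2 and mt-Rnr1 were lower, at 598 ± 172 TPM and 216 ± 71.4 TPM. Of 13 mitochondrial messenger RNA genes, 6 were listed at 0 in all 4 libraries: mt-Co2, mt-Co3, mt-Atp6, mt-Atp8, mt-Nd3 and mt-Nd4l. All 22 mitochondrial transfer RNA genes were also listed at 0. Every cell uses these genes, so the share covers the 9 genes with values and is no measure of all mitochondrial RNA.

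The nuclear genes of oxidative phosphorylation were abundant as well, at 4.79, 3.94, 4.78 and 5.14% of TPM, again lowest in library 2. Atp5f1b, the beta subunit of ATP synthase, stood at 2843, 2336, 2737 and 2780.5 TPM. Ndufb8 and Ndufa3, of complex I, stood at 2316 ± 258 TPM and 1358 ± 140.1 TPM, and Cox8a and Cox6b1, of complex IV, at 1447 ± 156 TPM and 1438 ± 173 TPM. The mitochondrial ADP and ATP carrier Slc25a5 stood at 1355, 823, 1347 and 1394 TPM, also lowest in library 2. Its paralogue Slc25a4 stood at 365 ± 23.6 TPM.

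Glycolysis and lactate enzymes held 0.886, 0.864, 0.904 and 0.812% of TPM in 16 genes, all with a mean of at least 1 TPM. Aldoa, an aldolase, stood at 2258, 2279, 2279.9 and 2002 TPM. Ldha, which makes lactate, stood at 1513, 1537, 1492 and 1451 TPM, among the 10 steadiest of the 200 most abundant genes. Because an antisense identifier shares the Ldha locus, part of either value may belong to the other. Pkm, Gapdh and Eno1 stood at 1030.5 ± 62.3 TPM, 809.99 ± 105 TPM and 762 ± 47.4 TPM. The ratio of Ldha to Ldhb, the heart-type subunit, was 1.91, 3.6, 1.88 and 1.99, with library 2 above the rest. Of 15 listed genes linked to low oxygen, the highest was Hif1a, at 422, 408, 376 and 307 TPM. Hif1a is the oxygen-sensed factor itself, and its RNA is not a readout of the response. Of the 15 genes, 14 had a mean of at least 10 TPM, which 9822 of all 77981 genes reached. A mean of at least 100 TPM was reached by 2 of the 15, and the median member stood at 36.25 TPM. Pfkfb3, which speeds glycolysis, stood at 126 ± 34.9 TPM and the glucose carrier gene Slc2a1 at 87 ± 2.38 TPM. Car9, a classical target of that factor, stood at 0.57, 0.44, 0.28 and 0.47 TPM.

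Fatty acid oxidation was present at a lower level, 1388 ± 88.6 TPM summed over 13 genes. Acaa2, the last enzyme of the cycle, stood at 273, 291, 321 and 290.5 TPM and the dehydrogenase Acadvl at 202 ± 23.1 TPM. Cpt1a, the gate for entry into mitochondria, stood at 82.1 ± 4.6 TPM. Its muscle-type paralogue Cpt1b stood at 32.6, 10.9, 39.8 and 33.2 TPM, low in library 2. Of gluconeogenesis, the pyruvate carboxylase gene Pcx stood at 345, 429.6, 350.4 and 383 TPM. The cytosolic enzyme genes Pck1 and Fbp1, which mark the proximal tubule, were high in libraries 1 and 3, where the other proximal tubule markers were high. Pck1 stood at 20, 4.9, 24 and 1.75 TPM. Fbp1 stood at 41.9, 4.99, 47 and 6.4 TPM. Both are themselves on the proximal tubule list, and which cells gave this RNA was not tested.

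Of all 77981 genes, 9822 had a mean of at least 10 TPM. All 13 listed genes of the response to high tonicity had a mean of at least 10 TPM, and 9 of at least 100 TPM. Their median member stood at 165 TPM, and Cryab and Akr1b1 were the only 2 among the 25 highest genes. Akr1b1, the aldose reductase that makes the osmolyte sorbitol, stood at 4155, 4834, 4079.8 and 4113 TPM, rank 11 of all genes. Nfat5, the transcription factor of the tonicity response, stood at 60.6, 98.3, 89.8 and 82.9 TPM, lowest in library 1. Of the osmolyte carriers, Slc5a3, for myo-inositol, stood at 208, 141, 158 and 154 TPM. Slc6a12, for betaine, stood at 72.5, 83.7, 68.7 and 55.8 TPM. Slc6a6, for taurine, stood at 35.6, 39.7, 39.4 and 39.5 TPM. The inositol carrier was thus the highest of the 3 in every library. Exons of Slc5a3 overlap Mrps6 on the same strand, and Mrps6, a mitochondrial ribosomal protein gene, stood at 1336, 924, 1073 and 1249 TPM, so reads can be split between the 2 genes. Pnpla6, which breaks down phosphatidylcholine to the osmolyte glycerophosphocholine, stood at 126, 137, 122 and 124 TPM. Sord, which removes sorbitol, stood at 30.9, 4.92, 20.9 and 15.4 TPM and was low in library 2.

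Heat shock proteins followed. Cryab made up 50.2% of the chaperone list. Hsp90ab1, a cytosolic chaperone, stood at 1062, 1186, 1046 and 896 TPM. Hspa5, of the endoplasmic reticulum, stood at 831 ± 99.9 TPM and Hsph1, a co-chaperone, at 636 ± 128 TPM. The inducible gene Hspa1b stood at 605, 606, 527 and 471 TPM, and its near copy Hspa1a at 141 ± 21.2 TPM; reads can be split between them. Hspa4l, known from osmotic stress, stood at 209 ± 48 TPM. Hspb1, a small heat shock protein as Cryab is, stood at 257, 439, 302 and 211 TPM, highest in library 2. Library 4 was the lowest of the 4 for Hsp90ab1, Hspa5, Hsph1, Hspa1b, Hspa1a, Hspa4l and Hspb1. The whole chaperone list was also lowest there, at 2.93, 3.05, 2.62 and 2.51% of TPM. Cryab was nearly equal in libraries 3 and 4, at 12486 and 12515 TPM, below libraries 1 and 2. Not all genes of the list were low in library 4. Hspa8, the constitutive form of the inducible genes, was lowest in library 2 at 558, 391, 494 and 447 TPM. Ppia, a folding enzyme, was highest in library 4 at 671, 686, 664 and 707 TPM.

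Detoxification and iron storage genes were abundant. Gstm1, a glutathione transferase, stood at 3501, 4474, 3264 and 3756 TPM. Gstm2, its paralogue, stood at 1654, 2213, 1756 and 2172 TPM, and both were highest in library 2. Their close sequence likeness to each other makes the split between them uncertain. Prdx1, a peroxide-removing enzyme, stood at 901, 894, 887 and 873 TPM, with a CV (SD as a percent of the mean) of 1.36%. Prdx5 and Gpx1, of the same task, stood at 1372 ± 136 TPM and 1071 ± 87.1 TPM. Fth1, the heavy chain of ferritin, stood at 4559.99, 4220.2, 4076 and 3848 TPM, above Ftl1, the light chain, by a ratio of 3.02 ± 0.27. Mt1, a metallothionein that binds zinc, stood at 742, 560.1, 644 and 389 TPM. Mt2 stood at 84.4, 90, 76 and 36.1 TPM, and both were lowest in library 4.

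The beta subunit genes of the sodium pump were above the genes of the apical sodium channel. Atp1b1 and Atp1b3 stood at 1178 ± 97.9 TPM and 619 ± 33.3 TPM, and exons of Atp1b1 overlap Nme7 on the other strand. Library 2 was low for Fxyd2 but not for Atp1b1, Atp1b3 or Fxyd4. Fxyd2 is also high in the thick ascending limb, whose markers were low in library 2, and how much RNA each segment gave was not tested. All 7 FXYD genes had a mean of at least 1 TPM, and Fxyd5 had rank 3 among them at 205 ± 26.3 TPM. The subunits of the epithelial sodium channel were led by Scnn1b and Scnn1g at 26 ± 4.2 TPM and 25.6 ± 5.54 TPM. Scnn1a stood at 11.5, 3.08, 9.2 and 9.53 TPM, lowest in library 2. Hsd11b2, which shields the mineralocorticoid receptor from glucocorticoids, stood at 36.9 ± 5.27 TPM, and the receptor Nr3c2 at 28.5 ± 1.79 TPM. The kinase gene Sgk1, a target of corticosteroids and of tonicity, stood at 2129.6, 1606, 1286 and 1276 TPM, highest in library 1.

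Of 11 aquaporins, 7 had a mean of at least 1 TPM. Aqp2 exceeded Aqp3 by a ratio of 25.4, 21.1, 19.3 and 20.6. It exceeded Aqp4 by a ratio of 17.9, 15.1, 17.9 and 24.5. Aqp1, of the thin descending limb and vasa recta, stood at 455, 568, 586 and 585 TPM. Aqp5 stood at 44 ± 6.45 TPM and Aqp6, of intercalated cells, at 18.6 ± 3.87 TPM. Aqp9, Aqp7, Aqp8 and Aqp12 had means below 1 TPM. Slc14a2 exceeded Slc14a1, the urea transporter of vasa recta and red cells, by a ratio of 10.4, 8.72, 7.17 and 8.66.

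Of 389 Slc genes, 277 had a mean of at least 1 TPM and 28 of at least 100 TPM. Besides Slc25a5 and Slc14a2, the leaders were Slco4a1, an organic anion carrier, at 696, 496, 433 and 486 TPM, the mitochondrial phosphate carrier Slc25a3 at 516 ± 48.9 TPM and Slc12a1, the thick limb cotransporter, at 495 ± 268 TPM. Of 99 potassium channel genes, 31 had a mean of at least 1 TPM. Kcnj1 (ROMK, also of the thick ascending limb) stood at 155, 19.2, 132 and 133 TPM, low in library 2 as Slc12a1 was. Kcnk5, an acid-sensitive channel, stood at 105 ± 31.2 TPM, Kcnk1 at 97 ± 9.92 TPM, Kcnj16 at 84.8 ± 12.2 TPM and Kcnj13 at 72.4 ± 6.42 TPM. The proton pump list of 27 genes was led by Atp6v0e at 1233, 1162, 1174 and 1183 TPM, a subunit shared with lysosomes of all cells.

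The epithelial barrier had a clear order of members. Cdh16, the kidney cadherin, stood at 1526, 1946, 1938 and 1908 TPM. Cdh1 (E-cadherin) stood at 517 ± 42 TPM, and these were the only 2 of 23 cadherins with a mean of at least 10 TPM. Among 24 claudins, Cldn8, a chloride-path claudin of the collecting duct, stood at 662, 1049, 906 and 925 TPM, lowest in library 1. Cldn10, of the thick and thin limbs, stood at 619.9, 592, 712 and 742 TPM, Cldn7 at 239.6 ± 18.4 TPM, Cldn15 at 176 ± 2.08 TPM and Cldn4 at 130.1 ± 9.64 TPM. Epcam, a surface protein that holds claudins, stood at 737 ± 29.5 TPM.

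The keratin pattern was that of a simple epithelium, with Krt18, Krt8, Krt7, Krt19 and Krt23 at 632 ± 78.3 TPM, 276 ± 32.8 TPM, 253 ± 19.5 TPM, 119 ± 37.5 TPM and 109 ± 19.1 TPM and 40 of 51 keratins below a mean of 1 TPM. The cytoskeleton list was led, after Tmsb4x, by Pfn1 (profilin) at 1794 ± 147 TPM and the myosin light chain genes Myl12a and Myl12b at 861 ± 30.5 TPM and 749 ± 68.7 TPM. Anxa2 and Anxa5, calcium-dependent membrane binders, stood at 1191 ± 149 TPM and 788 ± 35.9 TPM, and the calcium-binding genes S100a6, S100a11 and S100a1 at 1394 ± 144 TPM, 974 ± 154 TPM and 448 ± 69.8 TPM. Toward the basement membrane, Itgb1 led the integrin genes at 499 ± 19.1 TPM, with Itgb5 at 155, 263, 282 and 289 TPM and Itga3 at 216 ± 34.4 TPM. Lamb3, Lamb2, Lama5 and Col4a3, of laminin and collagen IV, stood at 151 ± 13.4 TPM, 141 ± 15.7 TPM, 129.6 ± 14.2 TPM and 111 ± 12 TPM. Timp3, an inhibitor of matrix proteases, stood at 1018 ± 87 TPM.

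Protein turnover lists were steadier than the ribosomal protein list. The SD was 2.02% of the mean for ubiquitin and proteasome genes, 3.00% for lysosomal genes and 5.15% for ribosomal protein genes. Single leading genes varied more, with a CV of 8.49% for Rps27 and 10.7% for Ctsd. Cytosolic ribosomal proteins held 2.32, 2.5, 2.44 and 2.63% of TPM, led by Rps27 at 1257 ± 107 TPM. Eef1a1, the elongation factor that brings transfer RNA to the ribosome, stood at 1197 ± 108 TPM. Ubiquitin and proteasome genes held 1.37% ± 0.0277, led by Ubb at 770.1 ± 42.1 TPM and the proteasome subunit gene Psmb6 at 648 ± 24.5 TPM. Lysosomal genes held 0.745% ± 0.0223, led by the protease Ctsd at 1373 ± 147 TPM and the membrane protein Lamp1 at 1216, 1220.3, 1199 and 1177 TPM.

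Of 291 genes for G protein-coupled receptors, 110 had a mean of at least 1 TPM and 8 of at least 100 TPM. Adgrg1, an adhesion receptor, stood at 530.4, 593, 610.3 and 702 TPM and Avpr2 was second. Ptger1, the EP1 receptor for prostaglandin E2, had rank 3 at 279.9, 407, 292 and 324 TPM. Npy1r, a receptor for neuropeptide Y, had rank 4 at 190.4 ± 15.5 TPM. The EP3 receptor Ptger3 stood at 66.8, 17.5, 67.4 and 82.1 TPM, low in library 2 as the thick limb markers were, and Ptger4 and Ptger2, which raise cyclic AMP, at 1.99 ± 0.551 TPM and 1.32 ± 0.388 TPM. On the side of synthesis, Ptges, which makes prostaglandin E2, stood at 398, 451, 389 and 385 TPM. Ptgs1, the constitutive cyclooxygenase, stood at 195, 257, 185 and 125 TPM, lowest in library 4. The inducible cyclooxygenase Ptgs2 stood at 7.49 ± 1.12 TPM.

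Other local signals were lower. Ednrb, the endothelin B receptor, stood at 66.1, 49.5, 62.5 and 51.8 TPM and its ligand gene Edn1 at 3.28 ± 1.07 TPM. Edn3, another ligand, stood at 13.3, 20, 34.5 and 19.8 TPM, highest in library 3. Nos3, the nitric oxide synthase of endothelium, stood at 17 ± 2.32 TPM, and Nos1 and Nos2 at 0.242 ± 0.0472 TPM and 0.25 ± 0.11 TPM. Among receptors for purines, the ion channel gene P2rx4 stood at 112 ± 11.4 TPM, the adenosine receptor Adora1 at 103 ± 10.5 TPM, P2ry14 at 99.6 ± 12.9 TPM and P2ry2, which opposes vasopressin in the duct, at 26 ± 5.13 TPM. Igfbp7 made up 84.2% of the IGF binding protein genes, followed by Igfbp5 at 520.1 ± 53.3 TPM and Igfbp2 at 76.4, 129, 162 and 121 TPM. Of secreted defence genes, Wfdc15b stood at 840.1, 270.3, 855 and 1099 TPM, low in library 2. Wfdc2 stood at 257 ± 38.9 TPM, Defb1 at 131 ± 21.8 TPM and Lcn2 at 54.5 ± 14.7 TPM.

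Transcription factor genes were led by Xbp1, of the secretory stress response, at 656, 604, 625 and 582 TPM. Pax8, a factor of kidney epithelium, stood at 519, 548, 531 and 473 TPM. Elf3 and Ehf, epithelial ETS factors, stood at 333 ± 41.8 TPM and 248 ± 10.7 TPM. Known collecting duct factors were present at lower levels, with Gata3 at 169 ± 21 TPM, Elf5 at 88.8 ± 12.3 TPM, Tfcp2l1 at 47.8 ± 5 TPM, Grhl2 at 24.7 ± 4.31 TPM and Pax2 at 21.5 ± 1.17 TPM. Of 39 Hox genes, which mark position along the body, 27 had a mean of at least 1 TPM and the first 5 were Hoxb7 (118 ± 10.3 TPM), Hoxb6 (94.4 ± 4.15 TPM), Hoxb9 (57.8 ± 5.92 TPM), Hoxb2 (51.8 ± 2.07 TPM) and Hoxa7 (50.4 ± 4.2 TPM). Among the listed nuclear receptors, Nr1h2 stood at 122 ± 11 TPM, Nr2f6 at 75 ± 4.89 TPM, Nr2f2 at 57 ± 1.77 TPM and the glucocorticoid receptor Nr3c1 at 46.3 ± 2.16 TPM. The list of immediate early genes, which rise within minutes of a stimulus, summed to 1191, 1321, 1347 and 1783 TPM, highest in library 4. Members differed: Ier2 was highest in library 4 at 30.6, 39.5, 43.4 and 76.7 TPM, and Myc was highest in library 3. Of the immediate early genes, a pair stood apart in library 4. Egr1 stood at 3.96, 5.95, 7.44 and 102 TPM. Nr4a1 stood at 10.3, 11, 12.2 and 73.2 TPM. Fos, the best known of them, stood at 4.77, 7.34, 6.32 and 11.2 TPM, and Fosb at 0.155 ± 0.058 TPM. Dusp1, a phosphatase of the same list, stood at 462, 254, 298 and 414 TPM and was the highest of the list by mean.

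Markers of other segments and cell types were present beside those of the duct. In bulk RNA, fewer cells of a type and less RNA per cell cannot be told apart. The endothelial list summed to 2904 ± 43.5 TPM, the thick ascending limb list to 2811 ± 1003 TPM, the thin limb list to 2517 ± 204 TPM and a list of other principal cell genes to 2528 ± 377 TPM, of which Sgk1 made up 62.3%. The 6 duct markers summed to more than any of these in every library. Thin limb genes included Sptssb at 571, 709, 671 and 664 TPM, Aqp1 (above) and the carrier gene Slc4a11 at 364 ± 38 TPM. Corin and Fst, also on the list, were low at 1.64 ± 1.09 TPM and 0.882 ± 0.457 TPM. The endothelial list summed to 2869, 2956, 2866 and 2923 TPM, the smallest relative spread of all cell type lists. Plvap, of fenestrated capillaries, stood at 1282, 1298, 1325 and 1327 TPM. Emcn stood at 705 ± 44.4 TPM, and Pecam1 and Eng, general endothelial genes, at 175 ± 14.5 TPM and 168 ± 6.69 TPM.

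Thick ascending limb markers summed to 3407, 1311, 3234 and 3293 TPM. Umod, the uromodulin gene that defines this segment, stood at 1404, 188, 1139 and 1162 TPM. Slc12a1, its sodium, potassium and chloride cotransporter, stood at 682, 98.3, 577 and 624 TPM. Egf, the growth factor precursor, stood at 127, 30.5, 138 and 117 TPM. Library 2 was below the other 3 for each, without overlap, and Ppp1r1a (94.5 TPM in library 2) and Tmem207 (5.82 TPM) were low there too. The claudins of the list did not follow to the same extent. Cldn10 stood at 619.9, 592, 712 and 742 TPM. Cldn16 stood at 29.4, 52.8, 42.8 and 39.8 TPM and was highest in library 2. Cldn19 stood at 98.8, 149, 138 and 150.5 TPM, lowest in library 1. None of the 9 markers was at 0 in any library.

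Proximal tubule markers summed to 1176, 182, 818 and 146 TPM, with an SD nearly the size of the mean (581 ± 503 TPM). Library 1 weighed most: without it the mean was 382 TPM. Kap, an androgen-dependent kidney gene, stood at 563, 55.4, 262 and 33.5 TPM. Slc34a1, the phosphate carrier of this segment, stood at 42, 4.2, 23.2 and 2.61 TPM. Libraries 1 and 3 were above libraries 2 and 4 for these and for Napsa (68 ± 53.8 TPM), Slc27a2 (51.8 ± 41 TPM) and Miox (31.2 ± 26.4 TPM). Other defining genes were low, with Slc5a2, the glucose carrier, at 1.84 ± 1.49 TPM and the endocytic receptors Lrp2 and Cubn at 1.91 ± 2 TPM and 0.748 ± 0.64 TPM. Slc7a13, an amino acid carrier known to be higher in males, stood at 13.2, 0.26, 0.4 and 0.1 TPM. Cyp2e1 stood at 16.3, 0.44, 1.65 and 0.34 TPM, and both were high in library 1, the library with Y-linked RNA. Of 22 markers, 20 had a mean of at least 1 TPM and 11 of at least 10 TPM. Their part in other values of libraries 1 and 3 was not tested.

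**Figure D4:**
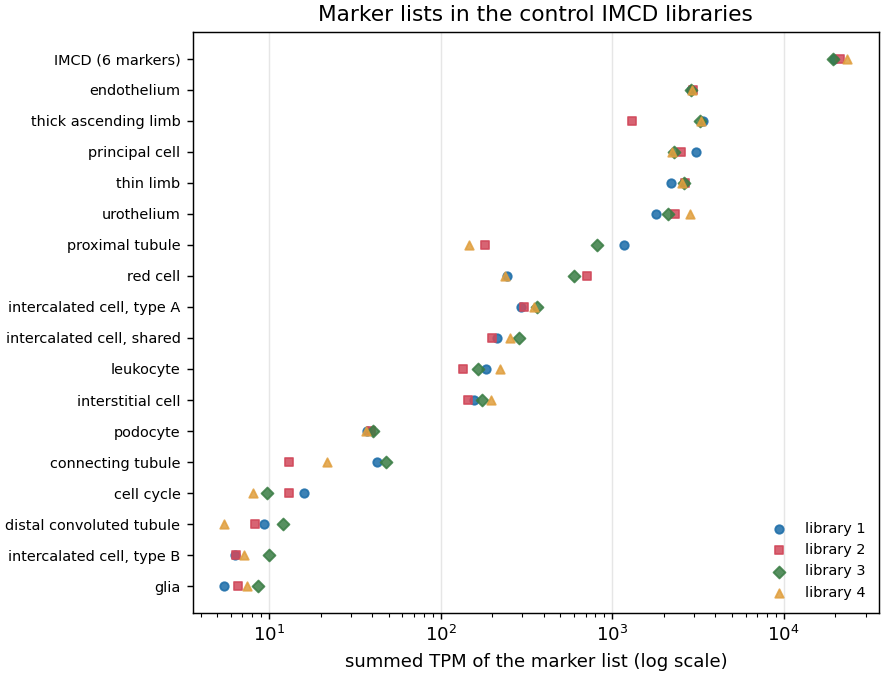
Summed TPM (horizontal axis, log scale) of marker lists for segments and cell types, 1 symbol for each control library. The duct markers lie between 19456 and 23517 TPM, proximal tubule markers spread from 146 to 1176 TPM, and thick limb markers in library 2 stand apart at 1311 TPM.

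Markers of the distal convoluted tubule, the connecting tubule and the glomerulus were low. The distal convoluted tubule list summed to 5.51 to 12.1 TPM, with Slc12a3, the thiazide-sensitive cotransporter, at 2.64, 2.16, 4.36 and 0.63 TPM. The connecting tubule list summed to 13.1 to 48.1 TPM, led by Klk1 (kallikrein) at 25.1, 3.72, 22.7 and 18.1 TPM, with the calcium channel gene Trpv5 at 0.03 ± 0.0271 TPM. The podocyte list summed to 37 to 40.3 TPM, of which Podxl, also made by endothelium, was 23.7 ± 1.77 TPM. The defining podocyte gene Nphs1 (nephrin) was near 0 at 0.102 ± 0.0486 TPM.

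Among markers of intercalated cells, the acid and base secreting cells of the duct, the type A list summed to 328 ± 33.3 TPM and the type B list to 7.49 ± 1.74 TPM. Slc4a1, the bicarbonate exchanger of type A cells and of red cells, stood at 84.3, 108, 143 and 113 TPM, and Kit and Aqp6, also of type A, at 16.9 ± 2.24 TPM and 18.6 ± 3.87 TPM. Adgrf5, on the same list, stood at 171 ± 13.1 TPM and is shared with endothelium. Foxi1, the factor of all intercalated cells, stood at 27.4, 39.2, 52.6 and 22.3 TPM, and the pump subunit genes Atp6v1g3 and Atp6v1b1 at 37.1 ± 10.2 TPM and 20 ± 3.07 TPM. Slc26a4 (pendrin), which defines type B cells, stood at 0.08, 0.14, 0.39 and 0.01 TPM. Slc4a9, another type B carrier, stood at 4.88 ± 1 TPM.

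Urothelium, the lining of the renal pelvis next to the inner medulla, was represented mainly by 1 gene. Its list summed to 1801 to 2840.4 TPM, and Psca made up 90.7% of that. The uroplakin gene Upk3a stood at 26.3, 78.3, 63.9 and 71.3 TPM, below 50% of every other library in library 1. Upk3b stood at 95.3 ± 18.9 TPM, Upk1b and Upk1a at 13.3 ± 2.91 TPM and 12.3 ± 1.83 TPM and Upk2 at 4.24 ± 1.59 TPM. Krt5, a keratin of basal cells, stood at 0.51, 1.93, 2.54 and 3.24 TPM. Krt20, of the superficial layer, stood at 0, 0.12, 0.02 and 0.13 TPM. Of 12 markers, 10 had a mean of at least 1 TPM, and library 1 was the lowest for Psca, Upk3b, Upk3a and Krt5.

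Blood, immune and connective tissue markers were low but present. Leukocyte markers summed to 183, 135, 166 and 223 TPM. They were led by the macrophage genes Lyz2 (87.7 ± 21.2 TPM), C1qb (25.8 ± 7.35 TPM) and Cd68 (17.1 ± 2.88 TPM). Ptprc, common to white blood cells, stood at 1.38, 1.48, 1.27 and 1.42 TPM, and the lymphocyte genes Cd3e, Cd79a and Ms4a1 at 0.537 ± 0.184 TPM, 0.853 ± 0.218 TPM and 0.18 ± 0.06 TPM. MHC class II genes were low in library 2, and Cd74, the chain that escorts class II molecules, stood at 249, 64.4, 169 and 251 TPM. Red cell genes summed to 244, 715, 597 and 238 TPM, so libraries 2 and 3 were above libraries 1 and 4, without overlap. Hba-a1, an alpha globin gene, stood at 105, 316, 272 and 100.2 TPM, and Alas2, of red cell heme synthesis, at 13.4 ± 7.21 TPM. The paired alpha globin genes are near copies, so the split between them is uncertain. The interstitial list summed to 144 to 197 TPM, led by Pdgfra at 67.7 ± 6.38 TPM, with Col1a1 and Lum at 1.23 ± 0.713 TPM and 0.323 ± 0.23 TPM. The glial list summed to 5.49 to 8.67 TPM, with Sox10 at 0.05, 0.23, 0 and 0.07 TPM. Cell cycle genes summed to 8.03 to 16 TPM, with Mki67 at 0.14, 0.03, 0.17 and 0.06 TPM.

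**Figure D5:**
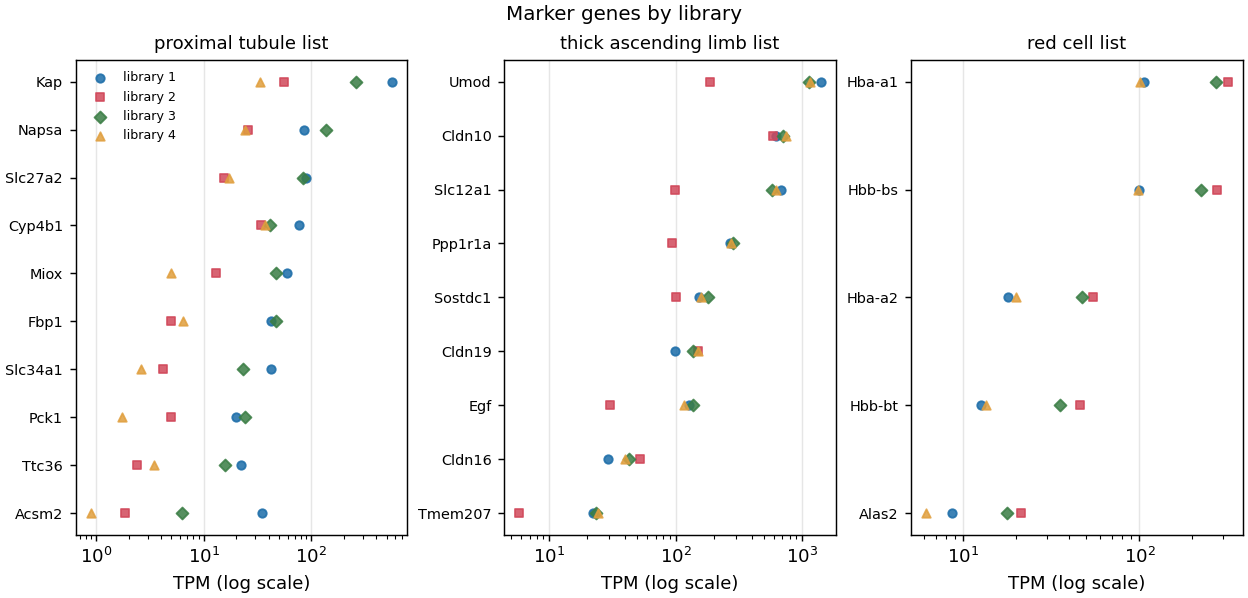
TPM (horizontal axis, log scale) of markers whose mean reached 10 TPM, drawn from the proximal tubule, thick ascending limb and red cell lists, 1 symbol for each control library. Libraries 1 and 3 are above libraries 2 and 4 for all 10 proximal tubule genes plotted, library 2 is lowest for 7 of 9 thick limb genes plotted, and libraries 2 and 3 are highest for all 5 red cell genes.

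Among the more abundant genes, most varied little between the 4 libraries, and low genes varied more. Among the 9822 genes whose mean reached 10 TPM, the median CV was 9.97%, 8742 genes (89.0%) had a CV under 20% and 94 genes (0.957%) a CV over 50%. The median CV was 7.49% between 100 and 1000 TPM, 10.7% between 10 and 100 TPM, 27.4% between 1 and 10 TPM and 10.9% at 1000 TPM or more. The 44505 genes with a mean above 0 and below 1 TPM had a median CV of 87.4%. Of the 200 most abundant genes, Cnbp, a nucleic acid binding protein, had the smallest CV, 0.828%, at 748, 739, 734 and 736 TPM. It was followed by Rplp0 (1.3%), Prdx1 (1.36%), Eif5a (1.39%), Lamp1 (1.63%), Plvap (1.66%), Cyb5a (1.95%), Vamp8 (2.38%), Ldha (2.44%) and Atp6v0e (2.64%). Rplp0 is also used as a reference gene, and others used that way had a CV of 2.79% (Ppia), 5.17% (Tbp) and 11.3% (Actb).

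Among genes whose mean reached 10 TPM, the 15 largest CVs belonged to 3 kinds of genes. Genes below that mean could have larger CVs, and Ddx3y and Eif2s3y, each at 0 in 3 libraries, had a CV of 200%. Of the 15 genes, 10 were short RNA or predicted genes with values of 0 in at least 1 library: Gm22357, Gm56425, Gm55327, Mirlet7i, Mir130c, Gm24989, Gm24045, Mir1892, Mir1903 and Gm55405. Mir1892, for example, stood at 0, 94, 0 and 236 TPM. The values belong to the annotated precursor loci and were not made with a kit for short RNA, so they are no measure of mature microRNA. The second kind were Egr1 and Nr4a1, high in library 4. The third kind were enzyme genes of lipid and steroid metabolism. Acsm2, of the proximal tubule, stood at 34.5, 1.85, 6.25 and 0.89 TPM. Akr1c21, a steroid dehydrogenase, stood at 43.7, 1.92, 14.6 and 2.57 TPM. Akr1c18, its paralogue, stood at 4, 3.95, 39.9 and 5.28 TPM and was high in library 3 alone. Among more abundant identifiers, Gm55891 stood at 0, 1859, 1337 and 946 TPM and was listed at 0 in library 1.

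Each library had genes that set it apart by a fold of 2 or more from all 3 others. Of the 9822 genes, 51 (0.519%) in library 2 were at or below 50% of every other library and 4 were at least 2-fold above. In library 1 the counts were 26 below and 9 above, in library 3 they were 2 below and 7 above, and in library 4 they were 10 below and 9 above. The genes below in library 2 included 5 of the 9 thick limb markers and 4 of the 13 MHC genes at this level. They also included Kng2, a kininogen, at 211, 30.9, 182 and 185 TPM. Ckb, the brain-type creatine kinase, stood at 333, 111, 295 and 314 TPM. Lpl, a lipase that feeds lipid uptake, stood at 50.5, 6.68, 48.8 and 46.1 TPM, and Fabp3, a fatty acid binding protein, and Slc16a7, a monocarboxylate carrier, stood at 14.2 and 20.3 TPM in library 2. Hmox1, which breaks down heme, was above in library 2 at 11.8, 29.9, 13.6 and 9.29 TPM.

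In library 1, genes below the rest besides Xist included Cebpb, Gadd45g and Myc, which respond to stress and growth signals. Myc stood at 11, 31.2, 31.8 and 22.8 TPM and Cebpb at 27.5 TPM in library 1 against 62.5, 114 and 116 TPM. The histone gene H1f4 stood at 1.63, 25.7, 31.5 and 5.74 TPM, and H2bc6 was low in library 1 as well. Genes above the rest in library 3 included Aadat, of amino acid breakdown, at 10.9, 14.3, 70.3 and 14.9 TPM. The antibody chain gene Igkc stood at 9.67, 3.82, 22.1 and 5.38 TPM. In library 4, Mt2 and the proximal tubule genes Pck1, Miox and Acsm2 were below, and Pdlim1 stood at 31.9, 32.9, 28.5 and 12.8 TPM. These genes were chosen after their values were seen.

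Transcript length did not follow abundance in 1 direction. The median length of the longest annotated transcript in GENCODE M21 was 1607 nt with 4 exons for the 69 protein-coding genes at 1000 TPM or more and 2405 nt with 6 exons for the 1968 genes between 100 and 1000 TPM. It was 3540.5 nt with 9 exons for the 7232 genes between 10 and 100 TPM and 3541 nt with 8 exons for the 3697 genes between 1 and 10 TPM. The 8752 genes under 1 TPM were shorter again, at 2199 nt with 4 exons. TPM divides by transcript length, so this is a description of the table, and the release may not be the one the authors used.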

How the data were processed

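RNA from 4 AVP-flox mouse kidney samples labelled IMCD was sequenced. Per the labels' protocols, cDNA was made with a SMART-Seq HT kit from 1 ng of total RNA in 11 cycles of PCR, tagmented with Nextera XT and read paired-end at 50 bp. The submitters' processing notes list STAR and RSEM with no version. Which build and gene annotation they used is not given in the sources used here. The deposited table holds TPM made by the authors for 78298 identifiers, and each column used sums to 1000000 within 2.04. AVP-flox samples were matched to the WT columns by replicate number. The 4 columns of AVP-flox;Cre were not analysed here.

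Identifiers were summed by symbol, 21883 without a symbol kept their identifier, and 77981 genes remained. Means, SD and CV were taken over 4 libraries with Python 3 (pandas, NumPy), and no groups were compared or tested. In each set of 4 values the highest and lowest library were screened with Dixon's ratio at its 95% critical value, which assumes normal values. Members, gene lists and the rule for named genes were chosen with earlier results of these data known, and 11 lists were added after the table was seen. The rule names the 6 markers, the 25 highest means, up to 5 members of each list, its defining markers near 0, the 15 largest and 10 smallest CVs, Avp and sex-linked genes. Genes beyond it were chosen after their values were seen. Gene types, transcript lengths and exon overlaps came from GENCODE M21 by identifier, and promoter windows from RefSeq by symbol. Scripts were tested on simulated data. Alternatives were each library left out, identifiers not summed, rescaling after removal of the 10 highest genes and all mitochondrial ones, median-of-ratios scaling, protein-coding genes only, medians over libraries and other thresholds. Some genes are not reported here.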

Additional observations from a re-analysis of the deposited data

Results flagged for a closer look

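Among 441 sets of 4 library values, 46 had 1 library far from the other 3, by a gap that made up nearly the whole range. For normal values chance flags about 1 in 20 sets. The number here is not to be read against that rate, since the sets include genes named for a large CV or chosen after their values were seen, and genes of 1 segment are not independent of each other. The outlying library was library 1 in 18 sets, library 2 in 14, library 3 in 4 and library 4 in 10. In each sentence the outlying value is given against the range of the other 3, and causes were not tested.

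In library 2 the thick limb list summed to 1311 TPM against 3234 to 3407 TPM. Single genes that were low there included Ppp1r1a (94.5 TPM against 270.4 to 283 TPM), Tmem207 (5.82 TPM against 22.1 to 24.3 TPM), Kcnj1 (19.2 TPM against 132 to 155 TPM), Kng2 (30.9 TPM against 182 to 211 TPM), Ckb (111 TPM against 295 to 333 TPM) and Lpl (6.68 TPM against 46.1 to 50.5 TPM). The mitochondrial genes were Slc25a5 (823 TPM against 1347 to 1394 TPM) and mt-Nd2 (1556 TPM against 2647 to 2820 TPM). Library 2 was high for the aldose reductase gene Akr1b1 (4834 TPM against 4079.8 to 4155 TPM), for the osmolyte list (0.521% against 0.445 to 0.455% of TPM) and for genes in no list (68% against 66.2 to 66.5%). The laminin genes Lama5 (151 TPM against 122 to 124 TPM) and Lamb3 (171 TPM against 144 to 145 TPM) were high there too.

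In library 1 the Y-linked genes stood apart: Ddx3y (32.3 TPM against 0 in each of the others), Eif2s3y (25.3 TPM against 0 in each of the others), Kdm5d (14.9 TPM against 0 in each of the others) and Uty (15.7 TPM against 0 to 0.01 TPM), and with them the sum of sex-linked genes (88.5 TPM against 19.2 to 26.2 TPM). Genes of the proximal tubule that were high in library 1 were Acsm2 (34.5 TPM against 0.89 to 6.25 TPM), Cyp2e1 (16.3 TPM against 0.34 to 1.65 TPM) and Slc7a13 (13.2 TPM against 0.1 to 0.4 TPM). Lower in library 1 were Cdh16 (1526 TPM against 1908 to 1946 TPM), Aqp1 (455 TPM against 568 to 586 TPM), Pde2a (66.7 TPM against 86.1 to 89.9 TPM) and Slc6a6 (35.6 TPM against 39.4 to 39.7 TPM), and the matrix list (0.601% against 0.7 to 0.716%). Higher there were Stx3 (50.7 TPM against 39.6 to 41.5 TPM), Gm55327 (39.2 TPM against 0 to 5.93 TPM) and Trpv5 (0.07 TPM against 0.01 to 0.02 TPM). Library 1 also listed 40702 genes of at least 0.1 TPM against 38525 to 38897, and 0.372% against 0.321 to 0.329% of its TPM lay in pseudogenes.

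In library 3 the urea transporter Slc14a2 was low at 848 TPM against 1054 to 1081 TPM. Aadat (70.3 TPM against 10.9 to 14.9 TPM), Akr1c18 (39.9 TPM against 3.95 to 5.28 TPM) and the purine receptor list (405 TPM against 376 to 379 TPM) were high there. In library 4 the immediate early genes Egr1 (102 TPM against 3.96 to 7.44 TPM) and Nr4a1 (73.2 TPM against 10.3 to 12.2 TPM) were high, as were Vamp2 (133 TPM against 112 to 113 TPM) and Gm22357 (43.7 TPM against 0 to 1.44 TPM) and the share of short noncoding genes (0.323% against 0.25 to 0.26%). Library 4 was low for Aldoa (2002 TPM against 2258 to 2279.9 TPM) and Oxtr (0.45 TPM against 1.02 to 1.07 TPM), for the nuclear receptor list (428 TPM against 458 to 459 TPM), for the protein-coding share (93.2% against 93.51 to 93.55%) and for the count of genes of at least 1 TPM (18211 against 18500 to 18531).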

How the results depend on the processing

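No paired analysis was possible because no groups were compared. The bound for an alternative was 1 SD of the libraries, or 1.5 times the main value for counts and the median CV. Of 93 values of 10 results under alternatives, 85 stayed within that bound and 8 did not. This tally is no measure of robustness. With 1 of 4 libraries left out, or with medians over libraries, a mean cannot move by 1 SD, so those values could not fail. The SD of log2(TPM + 1) is on another scale, and an overlap among the 50 highest genes cannot come within 1.5 times of 79. These 2 values could not pass. A threshold of 0.1 TPM raised the genes present in all 4 libraries to 28329. Of the 50 highest genes 36 were shared by all 4 libraries, and of the 500 highest 442. A filter at a mean of 1 TPM gave a median CV of 15.2%, and the median SD of log2(TPM + 1) was 0.14. Rescaling after removal of the mitochondrial genes and of the 10 highest, Aqp2 among them, left an IMCD marker sum of 5474 TPM and a ribosomal protein share of 2.73%, and rescaling to protein-coding genes gave 2.63%. Aqp2 and the mitochondrial share have no value under the former, and medians over libraries give none for shared genes or CV. With 1 library left out, 820 to 856 genes held 50% of TPM, the IMCD markers summed to 20093 to 21447 TPM and the proximal tubule markers to 382 to 726 TPM. The lowest of these, 382 TPM, was without library 1. The cause of each change was not tested beyond what the alternative removes. Limits are the 4 libraries of mixed sex pattern, unknown depth, an annotation release that is not given, mitochondrial genes listed at 0, no strand and bulk tissue in which the cell of origin of a transcript cannot be told apart.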

Other observations

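Further regulators not described above were present at moderate levels. Of 27 genes of the Klf and Sp family, zinc finger factors of epithelial maturation, 19 had a mean of at least 1 TPM, 13 of at least 10 TPM and none of at least 100 TPM, and Klf3 was the highest at 70.4, 108, 100.04 and 79.3 TPM. Of the factors that govern antioxidant genes, Nfe2l2 stood at 281, 357, 274 and 245 TPM and Nfe2l1 at 233 ± 8.69 TPM. Id3, an inhibitor of helix-loop-helix factors, stood at 195, 193, 184 and 229.7 TPM. Among receptors, the orphan receptor genes Gpr108 and Gprc5c stood at 135 ± 10.8 TPM and 117 ± 25.2 TPM, and S1pr3 and S1pr1, for the lipid sphingosine-1-phosphate, at 78.5 ± 18.6 TPM and 62.8 ± 12.5 TPM. Slc48a1, a heme carrier, and Slc44a1 and Slc44a2, choline carriers, stood at 354 ± 38.3 TPM, 182 ± 21.6 TPM and 182 ± 11.6 TPM.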
